A study of Mus musculus with 2 samples.

Results

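A list of 36 genes that white blood cells of many kinds share, coding for signalling proteins and for proteins that organise the actin cytoskeleton, was examined in mouse distal colon. The list was drawn up by gene name with earlier results of these data known, so its counts are a description of these arrays, and the genes were read through the probe sets that the platform annotation assigns to a single gene symbol. Of the 36, 33 had such a probe set (49 probe sets in all), among 12393 genes so represented on the array. Colon RNA came from IL-9 transgenic mice, named Tg5 in the labels, and from wild-type mice labelled FVB, which the series design text spells TVB. Each genotype was 1 array of RNA pooled from 4 mice bred in specific pathogen-free housing. Age, sex and the promoter that drives the transgene are not given in the sources used here, and whether Tg5 is 1 founder line is likewise not stated there. With 1 array per genotype no difference has a replicate check, so no test, p-value or standard error is given below.

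Leukocytes carry a set of proteins that other cells of the gut wall largely lack. CD45, the product of Ptprc, trims inhibitory phosphates from Src family kinases, which allows immune receptors with tyrosine motifs to recruit the kinase Syk. Adaptors such as SLP-76 then tie the receptor to exchange factors of the Vav and Dock families, which load Rac GTPases and so drive actin assembly through WASP. In the colon these proteins mark the immune cells of the lamina propria and of lymphoid follicles, which are few beside epithelium and muscle. Interleukin-9 is a cytokine of type 2 immunity that promotes mast cells. The comparison asks which colon genes differ when it is made from a transgene.

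Il9 itself was measured at 862 intensity units in the transgenic pool and at 5.14 in the wild-type pool, at least 43.6-fold higher. The floor, below which MAS5 values are too unstable to compare, was 19.8 units, the 40th percentile over both arrays, and lower values were raised to it before the transgenic intensity was divided by the wild-type one and the quotient put on a log2 scale. The median intensity was 34.2 on the transgenic array and 34.0 on the wild-type array. The 3′ to 5′ ratio of control probes, a measure of RNA integrity, was 0.762 in the transgenic pool and 0.719 in wild type for Gapdh. For Actb it was 1.30 in the transgenic pool and 1.38 in wild type. Genes brighter than the floor on either array, 8346 of them, are called measured.

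Nearly all measured leukocyte genes were brighter in the transgenic pool, by small to moderate amounts. Of the 33 genes, 29 were measured, and 28 of these had a log2 ratio above 0, against 56.0% of all measured genes. At least 2-fold higher were 5 genes (17.2%), namely Arhgdib, Coro1a, Srgn, Rac2 and Lst1, against a background of 0.767% of measured genes. No leukocyte gene was at least 2-fold lower, a call that 0.611% of all measured genes received. The median log2 ratio was 0.57 over the 29 leukocyte genes and 0.04 over all measured genes. A milder threshold of 1.5-fold, chosen after the values were seen, was passed upward by 14 of the 29, against 4.09% of all measured genes. In pooled tissue RNA, more leukocytes and more of these transcripts in each leukocyte cannot be told apart.

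The difference was seen in dim and in bright genes. Among the 9 measured leukocyte genes with a mean intensity of 100 or more, all 9 had positive ratios and the median log2 ratio was 0.88. All measured genes of that brightness had a median of 0.04, and 58.4% of them were positive. Among the 20 dimmer leukocyte genes, 19 were positive with a median of 0.43, against 53.8% and a median of 0.03 for all dimmer measured genes. Of the dimmer genes, 4 (Cd37, Dock2, Was and Spi1) were below the floor in wild type. They were measured only through the transgenic array, so their ratios are lower bounds and could only be positive. Of the 25 genes above the floor on both arrays, 24 were positive and 5 at least 2-fold higher, with a median of 0.62. Over all 7770 genes above the floor on both arrays, 56.6% were positive and 0.631% at least 2-fold higher, with a median of 0.04. With no floor or filter, 31 of the 33 genes were brighter in the transgenic pool, against 52.1% of all 12393 genes.

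**Figure D1:**
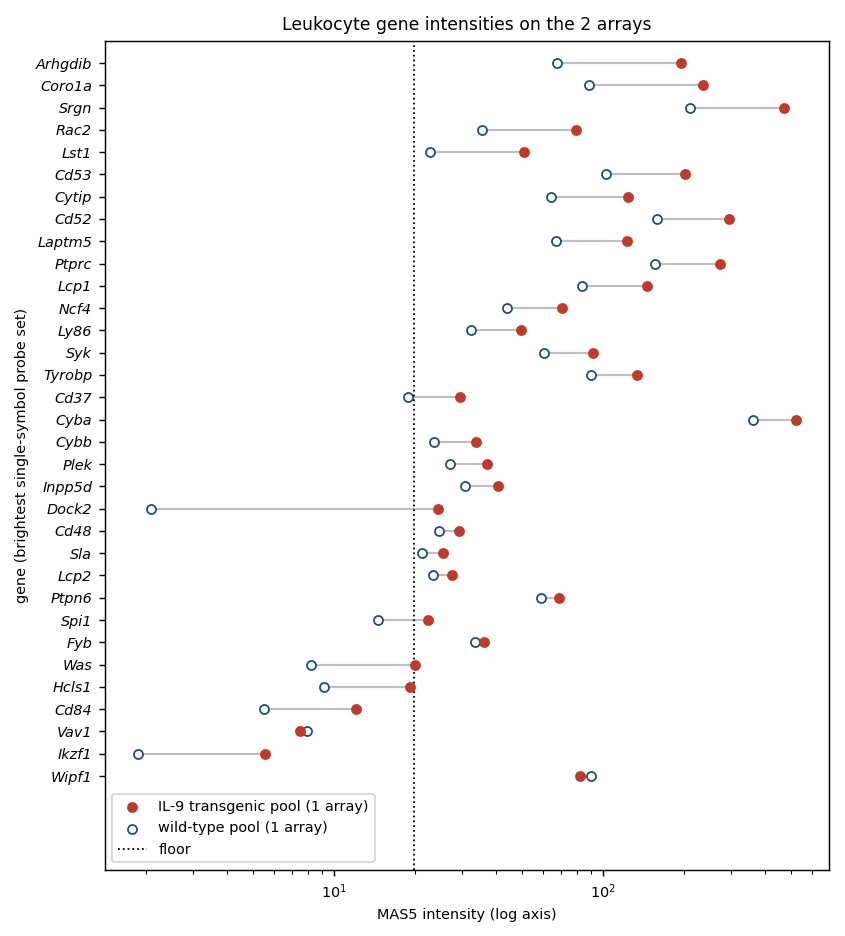
MAS5 intensity (log axis) of each of the 33 leukocyte genes in the IL-9 transgenic pool (filled red) and the wild-type pool (open blue), 1 array each, ordered by the log2 ratio after flooring, with the floor of 19.8 units dotted. The transgenic point lies right of the wild-type point for every gene but Vav1 and Wipf1, and the gap is widest among measured genes above the floor on both arrays for Arhgdib (195 against 67.4).

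Regulatory sequence of the list is shown because its genes were higher together and because several are described targets of PU.1, the blood-cell transcription factor made from Spi1, which binds purine-rich DNA around GAGGAA. Promoters, from 250 bases before to 50 bases after the annotated start, came from RefSeq on GRCm38.p6 and were found for 28 of the 36 genes, in 39 windows. The letters GAGGAAGT, searched on both strands, were found in 4 of the 39 windows (10.3%). The share was 2.85% in windows of genes measured on the arrays and 3.2% in windows of all genes with a promoter. The 39 windows include those of genes not measured here, such as Vav1, so the share over all genes is the closer comparison. The shorter GAGGAA, which every GAGGAAGT also contains, was found in 18 of 39 windows (46.2%), against 26.8% for measured genes and 28.3% for all genes. These shares describe letters in a window and are not binding sites.

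The 4 matches to GAGGAAGT follow, each as 30 bases on the strand of the gene, with the match in capitals (ACTTCCTC is the same motif on the other strand):
Inpp5d: gtttctataatGAGGAAGTtctgtgcagct
Vav1: cagtcacagaaGAGGAAGTggtgttgtagt
Cd37: acccccccggaACTTCCTCtttctctgccg
Cd53: cactcagtctcACTTCCTCactcttctcgc

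They lie at chr1:87620281-87620310 on the plus strand (Inpp5d), chr17:57279078-57279107 on the plus strand (Vav1), chr7:45238846-45238875 on the minus strand (Cd37) and chr3:106790125-106790154 on the minus strand (Cd53). The match begins 20 bases before the annotated start in Inpp5d, 11 before it in Vav1 and 25 before it in Cd37, while in Cd53 it lies just inside the transcribed sequence. The log2 ratios of these 4 genes were unlike one another: 0.98 for Cd53, 0.40 for Inpp5d and at least 0.57 for Cd37, while Vav1 was below the floor on both arrays.

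The promoters of the 2 genes with the largest ratios differed in this respect. One of the 3 annotated promoters of Arhgdib holds GAGGAA (capitals), and neither of the 2 promoters of Coro1a holds it. The 250 bases before the start are printed for that Arhgdib promoter (chr6:136939528-136939777, minus strand) and for the upstream one of Coro1a (chr7:126704817-126705066, minus strand):
Arhgdib: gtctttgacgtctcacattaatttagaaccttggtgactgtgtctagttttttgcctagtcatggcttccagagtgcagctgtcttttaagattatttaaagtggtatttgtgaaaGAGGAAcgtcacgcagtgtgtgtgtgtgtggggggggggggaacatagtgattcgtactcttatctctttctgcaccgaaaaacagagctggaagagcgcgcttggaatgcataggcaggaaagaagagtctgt
Coro1a: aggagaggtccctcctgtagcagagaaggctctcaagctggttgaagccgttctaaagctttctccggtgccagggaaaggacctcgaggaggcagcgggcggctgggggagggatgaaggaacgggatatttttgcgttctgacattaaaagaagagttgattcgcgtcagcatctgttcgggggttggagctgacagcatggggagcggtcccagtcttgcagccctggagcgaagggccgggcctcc

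Actin and small GTPase regulators held the 2 largest ratios of the list. Arhgdib, which codes for the blood-cell inhibitor that keeps small GTPases such as Rac in their inactive, GDP-bound form, had an intensity of 195 in the transgenic pool and 67.4 in the wild-type pool, a 2.89-fold difference. Only 0.180% of all measured genes had a higher ratio. Coro1a, an actin-binding coronin that T cells need to leave the thymus and survive, had 235 in the transgenic pool and 89.1 in wild type, 2.64-fold higher. Its second probe set gave 123 in the transgenic pool and 57.1 in wild type, a log2 ratio of 1.10, and its remaining probe set was below the floor on both arrays. Both measured probe sets of Coro1a thus passed 2-fold.

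Rac2, the Rac GTPase of blood cells, which is also a subunit of the phagocyte oxidase, read 79.7 in the transgenic pool and 35.5 in wild type, 2.25-fold higher. Lcp1, which codes for the actin-bundling protein L-plastin, read 146 in the transgenic pool and 83.6 in wild type, 1.74-fold higher, and its other probe set had a log2 ratio of 0.53. These genes stood clear of the floor on both arrays.

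Dock2, Was and Vav1 lay near or below the floor. Dock2, a Rac activator needed for lymphocyte migration, read 24.5 in the transgenic pool and 2.09 in wild type, at least 1.24-fold higher. Was, whose product WASP starts branched actin, read 19.95 in the transgenic pool and 8.22 in wild type, a bound of at least 1.01-fold that carries almost no information. Vav1, an exchange factor for Rac, was below the floor at 7.50 in the transgenic pool and 7.93 in wild type.

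Wipf1, which codes for the partner that stabilises WASP, was the single measured gene of the list with a negative ratio. Its brightest probe set read 82.6 in the transgenic pool and 90.1 in wild type, a log2 ratio of −0.12. Its second probe set read 56.3 in the transgenic pool and 40.5 in wild type, a log2 ratio of 0.48, so the direction of Wipf1 depends on the probe set.

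Of 8 surface and membrane protein genes 7 were measured, with log2 ratios from 0.26 to 0.98 and a median of 0.80. Of these 7, 5 passed 1.5-fold upward, against 4.09% of all measured genes, and 0 passed 2-fold, against 0.767%. Cd53, a tetraspanin of leukocytes, had 202 in the transgenic pool and 103 in wild type, 1.97-fold higher and just under the threshold. Cd52, a small glycan-rich peptide anchored by lipid, had 295 in the transgenic pool and 160 in wild type, 1.84-fold higher. Ptprc, the phosphatase CD45, had 272 in the transgenic pool and 156 in wild type, 1.75-fold higher, and 1.57% of all measured genes had a higher ratio.

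Laptm5, a lysosomal membrane protein that turns down antigen receptors, had 123 in the transgenic pool and 67.0 in wild type, 1.83-fold higher. Its probe sets disagreed: the second had a log2 ratio of 0.22, and the third was below the floor at 11.1 in the transgenic pool and 16.9 in wild type. Ly86, the secreted partner of the Toll-like receptor relative RP105 on B cells and myeloid cells, had 49.8 in the transgenic pool and 32.3 in wild type, 1.54-fold higher.

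The remaining surface genes lay near the floor. Cd37, a tetraspanin strongest in B cells, had 29.3 in the transgenic pool and 18.9 in wild type, at least 1.48-fold higher, and its second probe set, at 26.0 in the transgenic pool and 3.94 in wild type, also gave only a bound. Cd48, a lipid-anchored ligand of the SLAM family, differed less, with 29.3 in the transgenic pool and 24.5 in wild type. Cd84, a SLAM family receptor, was below the floor at 12.1 in the transgenic pool and 5.51 in wild type.

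**Figure D2:**
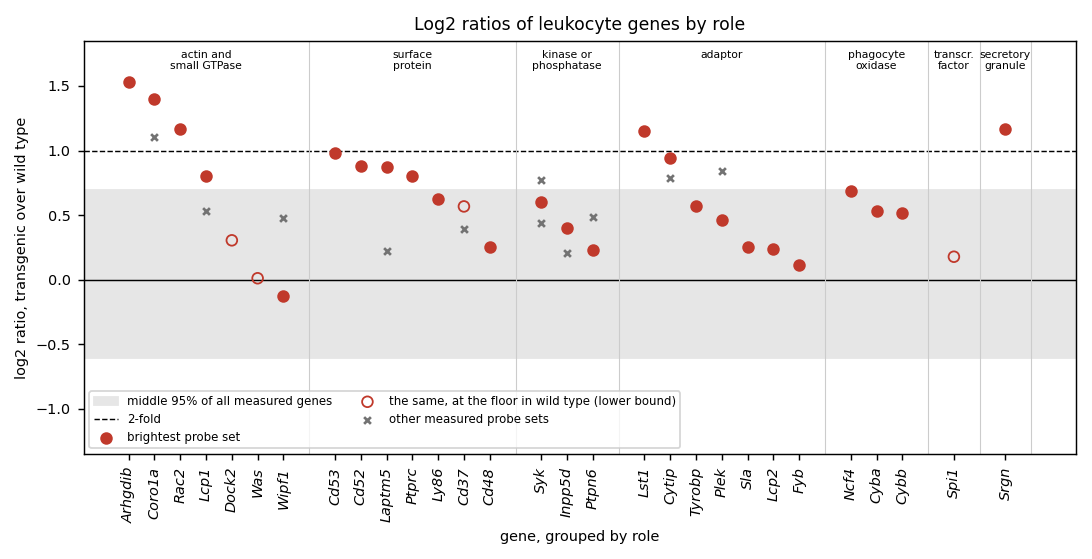
Log2 ratio of transgenic to wild-type intensity for the 29 measured leukocyte genes, grouped by role, with the brightest probe set of each gene as a circle (open where wild type was at the floor, a lower bound) and its other measured probe sets as crosses, those of Cd37 and Inpp5d also being lower bounds. The grey band is the middle 95% of all measured genes (−0.61 to 0.70) and the dashed line is 2-fold, which the brightest probe sets of Arhgdib, Coro1a, Rac2, Lst1 and Srgn exceed.

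Kinases and phosphatases of immune receptors were higher by less. Syk, the kinase that docks on phosphorylated receptor tails, had 92.3 in the transgenic pool and 60.7 in wild type, 1.52-fold higher. Its 2 other probe sets gave log2 ratios of 0.77 and 0.44, so all 3 pointed the same way. Inpp5d, the lipid phosphatase SHIP that opposes PI3-kinase, had 40.7 in the transgenic pool and 30.8 in wild type, 1.32-fold higher. Ptpn6, the tyrosine phosphatase SHP that restrains the same receptors, had 68.8 in the transgenic pool and 58.7 in wild type, 1.17-fold higher, and its second probe set had a log2 ratio of 0.49. Lyn, the Src family kinase of B cells and myeloid cells, was not analysed here.

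Adaptors spread from no clear difference to more than 2-fold. Lst1, a small membrane protein mainly of myeloid cells, had 50.8 in the transgenic pool and 22.9 in wild type, 2.22-fold higher, although the wild-type value lay close to the floor. Cytip, which binds the integrin regulator cytohesin, had 124 in the transgenic pool and 64.3 in wild type, 1.92-fold higher, with a log2 ratio of 0.79 at its second probe set. Tyrobp, the signalling chain of many activating receptors on myeloid and NK cells, had 134 in the transgenic pool and 90.2 in wild type, 1.48-fold higher.

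Plek, the protein kinase C substrate pleckstrin, had 37.1 in the transgenic pool and 27.0 in wild type, 1.38-fold higher. A second probe set of Plek had a log2 ratio of 0.84, and the last was below the floor. The 3 adaptors that work in T cell receptor signalling had some of the smallest log2 ratios among measured genes of the list. Sla had 0.25, Lcp2 (SLP-76) 0.23 and Fyb 0.12. Fyb had 36.3 in the transgenic pool and 33.5 in wild type. Sla (25.4 in the transgenic pool, 21.3 in wild type) and Lcp2 (27.4 and 23.3) lay close to the floor on both arrays. Their second probe sets were below it on both arrays. These read 16.2 in the transgenic pool and 10.6 in wild type for Sla, and 8.16 and 5.91 for Lcp2. Whether Sla and Lcp2 differ less than brighter genes was not tested. Hcls1, the blood-cell relative of cortactin, was just below the floor at 19.2 in the transgenic pool and was at 9.21 in wild type.

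Cybb, Cyba and Ncf4 code for subunits of the phagocyte oxidase, which makes superoxide to kill microbes, and had log2 ratios from 0.52 to 0.68, below that of Rac2 (1.17), which serves the same enzyme. Ncf4, a cytosolic regulatory subunit, had 70.6 in the transgenic pool and 44.0 in wild type, 1.61-fold higher. Cybb, the catalytic membrane subunit, had 33.9 in the transgenic pool and 23.7 in wild type, 1.43-fold higher. Cyba, the other membrane subunit, which also serves the oxidase of colon epithelium, had 525 in the transgenic pool and 363 in wild type, 1.45-fold higher.

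Srgn codes for serglycin, the proteoglycan core that packs proteases into granules of mast cells and other leukocytes. It had 473 in the transgenic pool and 210 in wild type, 2.25-fold higher. The transcription factor genes gave little: Spi1 had 22.4 in the transgenic pool and 14.6 in wild type, at least 1.13-fold higher, and Ikzf1, the lymphoid regulator Ikaros, was below the floor at 5.54 in the transgenic pool and 1.87 in wild type. Ucp2, a mitochondrial carrier, was not analysed here. Gmfg, a debranching factor for actin, has no probe set of its own. The 2 probe sets it shares with its pseudogene had log2 ratios of 0.14 and 0.18.

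Around the 2-fold threshold, Lst1 (1.15), Rac2 (1.17) and Srgn (1.17) lay just above it, and Cd53 (0.98), Cytip (0.94) and Cd52 (0.88) just below. The only yardstick of error in these arrays is the spread between probe sets of 1 gene, and it holds no spread between mice or pools. Where a gene had more than 1 probe set brighter than the floor on both arrays, the pooled within-gene SD of these log2 ratios was 0.27 for 8 leukocyte genes (17 probe sets) and 0.28 over all 2847 such genes. Cd53 and Lst1 therefore differ by less than this SD. Over all 40 measured probe sets of the list, 39 had positive ratios and 1, of Wipf1, was negative. Those of Cd37, Dock2, Was and Spi1 and the dimmer one of Inpp5d were measured only through the transgenic array and could only be positive. Another 9 probe sets were below the floor on both arrays, 6 of them brighter in the transgenic pool.

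Many of these genes have relatives that do the same work in epithelium, muscle or fibroblasts, and those relatives had ratios near 0. Of 22 listed relatives 18 were measured: 9 were positive, 9 were negative, the median log2 ratio was 0.00052, and none reached 1.5-fold in either direction (−0.41 to 0.33). In 10 pairs, which cover 7 leukocyte genes, both genes were above the floor on both arrays, and in 9 of these pairs the leukocyte gene had the higher ratio. Another 2 pairs, of Dock2 and Was, hold a leukocyte gene measured only through the transgenic array, whose ratio could only be positive. With 1 array per genotype this difference has no test.

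Rac1, the widely expressed Rac, had 1719 in the transgenic pool and 1693 in wild type, a log2 ratio of 0.02 beside 1.17 for Rac2. Pls1, the plastin of intestinal microvilli, had 459 in the transgenic pool and 538 in wild type, a log2 ratio of −0.23 beside 0.80 for Lcp1, and Pls3, the plastin of other solid tissues, had −0.41. The coronins Coro1b and Coro1c had log2 ratios of 0.25 and −0.12 beside 1.40 for Coro1a.

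Elsewhere the gap was smaller. The phosphatase gene Inppl1 had a log2 ratio of −0.31 beside 0.40 for Inpp5d, and Plek2 had 0.10 beside 0.46 for Plek. Laptm4a and Laptm4b had −0.13 and 0.17 beside 0.88 for Laptm5. Ptpn6 was the exception, at 0.23 beside 0.24 for Ptpn11. Dock2 and Was, both bounds, exceeded Dock1 and Wasl by 0.02 and 0.03.

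**Figure D3:**
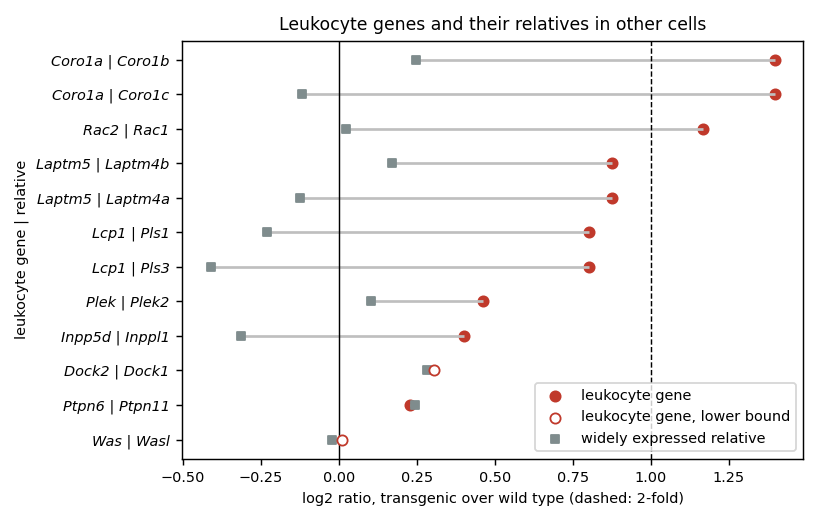
Log2 ratio of transgenic over wild-type intensity for 12 pairs of a leukocyte gene (red circles, open where the value is a lower bound) and a relative expressed in other cells (grey squares), with the dashed line at 2-fold. The relatives lie between −0.41 and 0.28, and the leukocyte gene lies to the right in every pair but Ptpn6 with Ptpn11.

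Other genes of leukocyte signalling pointed the same way with a smaller median. Of 50 genes on a separate list of blood-cell signalling and adhesion proteins, 31 were measured, with a median log2 ratio of 0.36. Of these, 23 were above the floor on both arrays, 19 of them with positive and 4 with negative ratios and a median of 0.39, while 7 were measured only through the transgenic array and could only be positive. Fgr was measured only through the wild-type array and could only be negative, at a log2 ratio of −0.15. Of all 31, only Fermt3, the kindlin that activates integrins in blood cells, was at least 2-fold higher, at 88.1 in the transgenic pool and 41.2 in wild type. Nckap1l, the blood-cell subunit of the WAVE actin complex, and Gimap4, a lymphocyte GTPase, followed at 1.86-fold each.

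Markers of single leukocyte lineages differed unevenly between the pools, and their part in the values above was not tested. Sums of intensity below are over measured markers, with values under the floor raised to it. Of 7 B cell markers on the array, 4 were above the floor on both arrays and all 4 were higher in the transgenic pool, 3 by at least 2-fold. Another, Cr2, was measured only through the transgenic array, the sums were 317 in the transgenic pool and 137 in wild type, and Pax5 and Blk were below the floor on both arrays. Of 8 mast cell markers, 2 (Cpa3 and Kit) were above the floor on both arrays, both higher and 1 by at least 2-fold. Mcpt1, Mcpt2, Fcer1a and Tpsb2 were measured only through the transgenic array and could only be higher, the sums were 3235 in the transgenic pool and 213 in wild type, and Ms4a2 and Hdc were below the floor on both arrays. Of 8 measured T and NK cell markers, 7 were measured only through the transgenic array and could only be positive, and the sums were 240 in the transgenic pool and 194 in wild type. Gzmb alone of these 7 was at least 2-fold higher, at 55.2 in the transgenic pool and 2.22 in wild type, a bound. Zap70, the one marker of the 8 above the floor on both arrays, had 43.6 in the transgenic pool and 55.3 in wild type. Cd4, Cd8a and Nkg7 were below the floor on both arrays.

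Macrophage and dendritic cell markers differed less than B cell and mast cell markers. Of the 9 above the floor on both arrays, 7 were positive, and the median log2 ratio of the 9 was 0.37. Adgre1 had the lowest, −0.43. Itgax was measured only through the transgenic array and could only be positive, at 42.1 against 14.2 in wild type, at least 2.13-fold higher. Sums over 10 measured genes were 1571 in the transgenic pool and 1354 in wild type. Plasma cell markers summed to 4156 in the transgenic pool and 3934 in wild type over 4 genes. None of 6 neutrophil and 5 eosinophil markers exceeded the floor on either array, so these data give no level for granulocytes.

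Within the list, genes were also set apart by lineage. The 4 measured genes that B cells and myeloid cells express but T cells largely do not (Syk, Spi1, Ly86, Cybb) had log2 ratios from 0.18, a bound for Spi1, to 0.62 with a median of 0.56. The 3 that B cells largely lack (Lcp2, Fyb, Tyrobp) had 0.12 to 0.57 with a median of 0.23. The ranges overlapped.

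Markers of the cells that make up most of the colon wall had medians near 0. Epithelial markers had a median log2 ratio of 0.04 over 7 genes, with sums of 12641 in the transgenic pool and 12533 in wild type. Smooth muscle markers had a median of 0.06 over 5 genes, and fibroblast markers one of 0.04 over 5. Endothelial markers had a median of 0.32 over 4 genes, with Plvap at 1.01. The 7 pancreatic acinar markers summed to 1641 in the transgenic pool and 21449 in wild type, and their part in the leukocyte values was not tested.

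**Figure D4:**
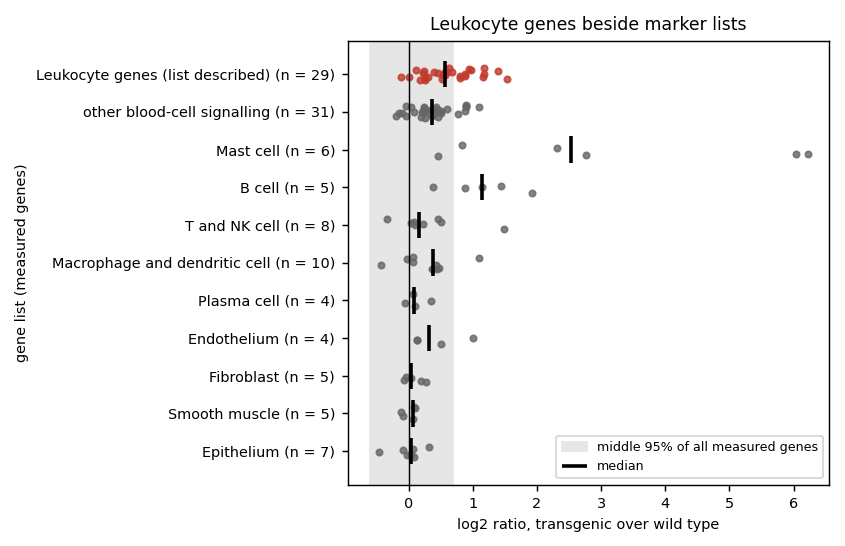
Log2 ratio of transgenic over wild-type intensity for each measured gene (points) of the leukocyte list (red) and of 10 other lists (grey), with each list's median as a black bar and the middle 95% of all measured genes shaded. Over measured genes, bounds included, the leukocyte list has a median of 0.57, between those of the B cell (1.14) and the macrophage and dendritic cell (0.38) markers, and the epithelial, smooth muscle and fibroblast medians lie from 0.04 to 0.06. The pancreatic acinar markers are not drawn: their median is −7.27 over 7 genes, 5 of them bounds.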

How the data were processed

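The deposited table holds 1 linear intensity per probe set and array, made by the authors with MAS5, per the submitters' processing notes; its version was not stated in these sources. Of 22690 probe sets, 64 were controls, and 20380 carried exactly 1 gene symbol, 691 several and 1555 none. Gene identifiers of all 33 leukocyte genes on the array were found in RefSeq (GRCm38.p6), with 0 symbols changed. The brightest single-symbol probe set stood for its gene. Intensities were floored at 19.8 and log2 ratios (transgenic over wild type) were called at 2-fold, with no further scaling. A gene at the floor on 1 array has only a bound on its fold. Every leukocyte gene is named, with relatives fixed as a list and up to 3 genes or the members that a count turns on from other lists; the markers named for their place relative to the floor, and Plvap, were chosen after their values were seen. The gene list, its roles and the other lists were chosen with earlier results of these data known. Alternatives were median scaling, quantile normalization, loess (span 0.3), floors at the 20th and 60th percentiles, a pseudocount of 0.735 without a floor, the mean of all probe sets, only genes above the floor on both arrays, and leaving out probe sets that can bind several transcripts. The procedure was tested on simulated arrays. Python 3.11.15, pandas 2.3.3 and statsmodels 0.14.6 were used. The number of arrays limits the precision.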

Additional observations from a re-analysis of the deposited data

How the results depend on the processing

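The median log2 ratio of the leukocyte genes stayed between 0.56 and 0.80 under all 9 alternatives, while that of all measured genes stayed between 0.02 and 0.04, and no leukocyte gene was at least 2-fold lower under any of them. The same 5 genes were at least 2-fold higher under median scaling, quantile normalization, loess, the mean of all probe sets and the restriction to genes above the floor on both arrays. Under these settings 0.63% to 0.76% of all measured genes were called so. The restriction could not change the 5 genes, since all were above the floor on both arrays. The mean of all probe sets could change only Coro1a, since the others of the 5 have a single probe set. The leukocyte count was 9 when the floor was lowered to the 20th percentile, where the share of all measured genes rose to 1.87%. It was 10 with no floor and a pseudocount, where that share rose to 5.29%. Dock2, Was, Hcls1 and Cd84 joined in both (and Ikzf1 in the second), all of them below 19.8 in wild type. The leukocyte count was 3, against 0.485% of all measured genes, when the floor was raised to the 60th percentile. That floor left 16 leukocyte genes measured, 15 of them positive, against 57.7% of all measured genes. The count was also 3, against 0.841%, when probe sets able to bind several transcripts were left out, since no measured probe set of Coro1a or Lst1 was then left. Rac2 had a log2 ratio of 0.53 at the 60th percentile floor, Laptm5 0.55 and Wipf1 0.18 with the mean of all probe sets. Of 235 comparisons of single genes with an alternative, 225 moved by no more than the SD between probe sets. Some could not move by construction. Restricting to genes above the floor on both arrays leaves each kept ratio as it was. So does lowering the floor for genes already above it on both arrays, and the mean of probe sets for genes with a single probe set. Leaving out probe sets able to bind several transcripts also changed no ratio of a gene that was kept. No paired analysis was possible because each genotype has 1 array, and for the same reason no replicate could be left out.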
